A study of Mus musculus with 2 samples.

Results

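Metallothioneins and the genes of cellular zinc transport were followed across the cell classes of cultured mouse bone marrow. The 6 members, taken by symbol, were Mt1, Mt2, Mtf1, Slc30a1, Slc39a1 and Slc39a14, of 32285 gene identifiers in all, and each of the 6 was found. The WT library came from Slc31a1flox/flox mice without Cre, and the cKO library from Prrx1-Cre+/-; Slc31a1flox/flox littermates. Both are on the C57BL/6J background, and the labels leave out ages. The floxed Slc31a1 alleles, which encode the copper importer SLC31A1, are thus shared by both libraries, and Prrx1-Cre, a driver of limb mesenchyme, is what differs. Flushed marrow of femurs and tibias was cultured, cells not attached after 48 h were washed off, and adherent cells were captured with the 10x Genomics 3' v3 kit without drug or osteogenic medium. The labels do not say how many mice went into each library.

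Metallothioneins are small cysteine-rich proteins that bind zinc and copper in the cytosol and release zinc again. MTF1 is a transcription factor that senses zinc and switches on metallothionein genes and Slc30a1 through short metal response elements. SLC30 proteins move zinc out of the cytosol, either out of the cell or into organelles, and SLC39 proteins move it in. Copper and zinc bind the same metallothioneins, and the libraries differ by a Cre aimed at the copper importer gene in mesenchymal cells.

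The 4 metallothionein genes of the mouse annotation, Mt4, Mt3, Mt2 and Mt1, lie in that order on the plus strand of chromosome 8 within 43131 bp (GRCm38). Mt2 spans 94172664 to 94173568 and Mt1 spans 94179082 to 94180327, with 5513 bp between them. The longest identical stretch of any Mt1 and Mt2 transcript is 20 nt, against 27 nt for Mt1 and Mt3. A predicted gene model, Gm45774, overlaps Mt2 on the other strand, while no other gene overlaps Mt1. Slc30a1 lies on chromosome 1 (191906767 to 191913247, plus strand), Slc39a1 on chromosome 3 (90248172 to 90253612, plus strand), Mtf1 on chromosome 4 (124802104 to 124849800, plus strand) and Slc39a14 on chromosome 14 (70303469 to 70351425, minus strand). Other gene models also overlap Mtf1 (1110065P20Rik, and n-R5s192 on the same strand) and Slc30a1 (1700034H15Rik), and no source used here says whether strand was used in counting.

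The bases before the start are printed for the 2 metallothionein genes detected together in single cells and for Slc30a1, the zinc exporter gene that is likewise a known MTF1 target. RefSeq promoter windows (GRCm38.p6) were found for 5 of the 6 members, with no entry for Slc39a14. Each run below is the 250 bases before the RefSeq start, on the gene's strand. Capitals mark matches to the metal response element core, TGCACNC or TGCGCNC, or to the core of an antioxidant response element, TGACNNNGC, on either strand.

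Mt1, chr8:94178839-94179088: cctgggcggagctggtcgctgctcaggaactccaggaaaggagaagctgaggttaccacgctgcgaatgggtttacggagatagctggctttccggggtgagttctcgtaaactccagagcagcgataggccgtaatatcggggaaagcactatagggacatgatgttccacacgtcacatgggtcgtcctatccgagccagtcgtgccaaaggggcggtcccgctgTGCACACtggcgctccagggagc

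Mt1, the first 30 bases from the start: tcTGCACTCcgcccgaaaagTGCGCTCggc

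Mt2, chr8:94172368-94172617: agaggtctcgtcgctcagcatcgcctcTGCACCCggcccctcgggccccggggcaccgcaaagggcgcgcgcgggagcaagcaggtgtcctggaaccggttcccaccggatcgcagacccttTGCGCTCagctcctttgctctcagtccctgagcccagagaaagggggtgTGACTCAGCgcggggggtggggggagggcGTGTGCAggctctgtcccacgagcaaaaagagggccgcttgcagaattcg

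Slc30a1, chr1:191906531-191906780: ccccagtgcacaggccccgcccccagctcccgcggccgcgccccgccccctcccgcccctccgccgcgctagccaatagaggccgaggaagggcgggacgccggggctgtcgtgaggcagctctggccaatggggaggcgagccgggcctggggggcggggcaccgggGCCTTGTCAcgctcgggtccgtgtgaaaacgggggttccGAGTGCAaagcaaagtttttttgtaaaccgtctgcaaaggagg

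Over the whole 300-base windows, which run on to 50 bases after the start, Mt2 held 4 matches to the metal response core, Mt1 held 3, Slc30a1 held 2, and Mtf1 and Slc39a1 held none. Of 32817 promoter windows of that length, 25.7% held at least 1 such match, 7.12% at least 2, 1.97% at least 3 and 0.518% at least 4. The antioxidant core was matched once each in Mt2, Slc30a1 and Slc39a1 and in 12.4% of all windows. In Mt2 that match reads TGACTCAGC, whose first 7 letters are also those of an AP-1 site. Windows depend on the start chosen: the RefSeq start of Mt1 lies 7 bases after the first and 152 bases before the last of 3 annotated starts in GENCODE. That of Mt2 lies 46 bases before the first and 242 bases before the last of 2. A match is a run of letters and not a measured binding site.

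The WT library held 152398639 UMIs (unique molecular identifiers, 1 per captured molecule) in 9125 barcodes and the cKO library 126031142 UMIs in 6140. Filters kept 7637 WT cells (median 9706 UMIs) and 5263 cKO cells (median 9710 UMIs), and 11 barcodes occurred in both libraries. The labels call the cells mesenchymal stem cells, but 48.8% of WT and 26.9% of cKO cells fell in mesenchymal-like clusters (3724 and 1417 cells), and macrophage-like cells made up another 2812 and 2529. Slc31a1 had 42.3 and 14.3 CPM (UMIs of the gene per 1000000 UMIs of the class) in mesenchymal-like cells of WT and cKO, a ratio of 0.338, against 70.0 and 72.2 CPM in the macrophage-like class. Mesenchymal-like cells differed in depth, with a median of 13967 UMIs in WT and 61951 in cKO. They also differed in blood-cell RNA: the 10 macrophage markers summed to 216 CPM in WT and 108 in cKO and the 10 neutrophil markers to 552 and 192, with each of the 20 genes lower in cKO. None of the 20 markers was at 0 in either library. The part of these differences in the results below was not tested. Each genotype has 1 library, so what follows compares 2 libraries with no replicate check, and fewer cells of a type and less RNA per cell cannot be told apart in a class sum.

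Mt1 was the most abundant member in both large classes and stood higher in macrophage-like than in mesenchymal-like cells. It had 246 CPM (95% interval 243 to 249) in mesenchymal-like cells of WT and 290 (286 to 294) in cKO. In macrophage-like cells it had 415 CPM (408 to 423) in WT and 449 (440 to 457) in cKO. Levels were lower in neutrophil-like cells (165 and 177 CPM) and in endothelial-like cells (155 and 161 CPM), and the intervals of these classes overlapped in each library. The highest level among units of at least 50 cells was in a cluster left unnamed (cluster 10; leading genes Aif1, Wfdc17 and Ftl1), with 719 CPM in WT and 735 in cKO. Its nearest class by markers was macrophage, with 3 markers raised but none among its 10 leading genes. Its cells were shallow, with medians of 1728 and 1496 UMIs. They also had little mitochondrial RNA, at a median of 0.492% and 0.526% of UMIs. In the largest macrophage-like cluster it was 3.755% and 3.49%.

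Mt2 had another order of named classes than Mt1. Mesenchymal-like cells had 52.2 CPM (50.8 to 53.6) in WT and 70.3 (68.5 to 72.1) in cKO, and macrophage-like cells 28.3 (26.4 to 30.3) and 45.6 (42.8 to 48.4). Endothelial-like cells had 44.7 CPM in WT and 24.8 in cKO. That is a ratio of 0.556 (0.418 to 0.733), opposite in direction to the mesenchymal-like and macrophage-like cells. Neutrophil-like cells had only 7.86 and 5.58 CPM. Mesenchymal-like cells were not the highest unit of all. Unnamed cluster 7, led by Tagln and Cnn1, had 66.7 CPM (49.0 to 88.7) in WT and 80.3 (66.1 to 96.7) in cKO. Unnamed cluster 10 had 69.8 CPM (33.5 to 128) in WT and 42.0 (21.7 to 73.4) in cKO. The intervals of both clusters overlapped those of mesenchymal-like cells. As a share of Mt1 and Mt2 UMIs together, Mt2 made up 17.5% in WT and 19.5% in cKO mesenchymal-like cells, and 6.38% and 9.22% in macrophage-like cells. The same share was 4.55% and 3.06% in neutrophil-like cells. Both genes are counted per molecule from the 3' end, so these shares carry no gene length. The plot of levels by class shows Mt1 highest in macrophage-like and Mt2 highest in mesenchymal-like cells of the 4 classes drawn.

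**Figure D1:**
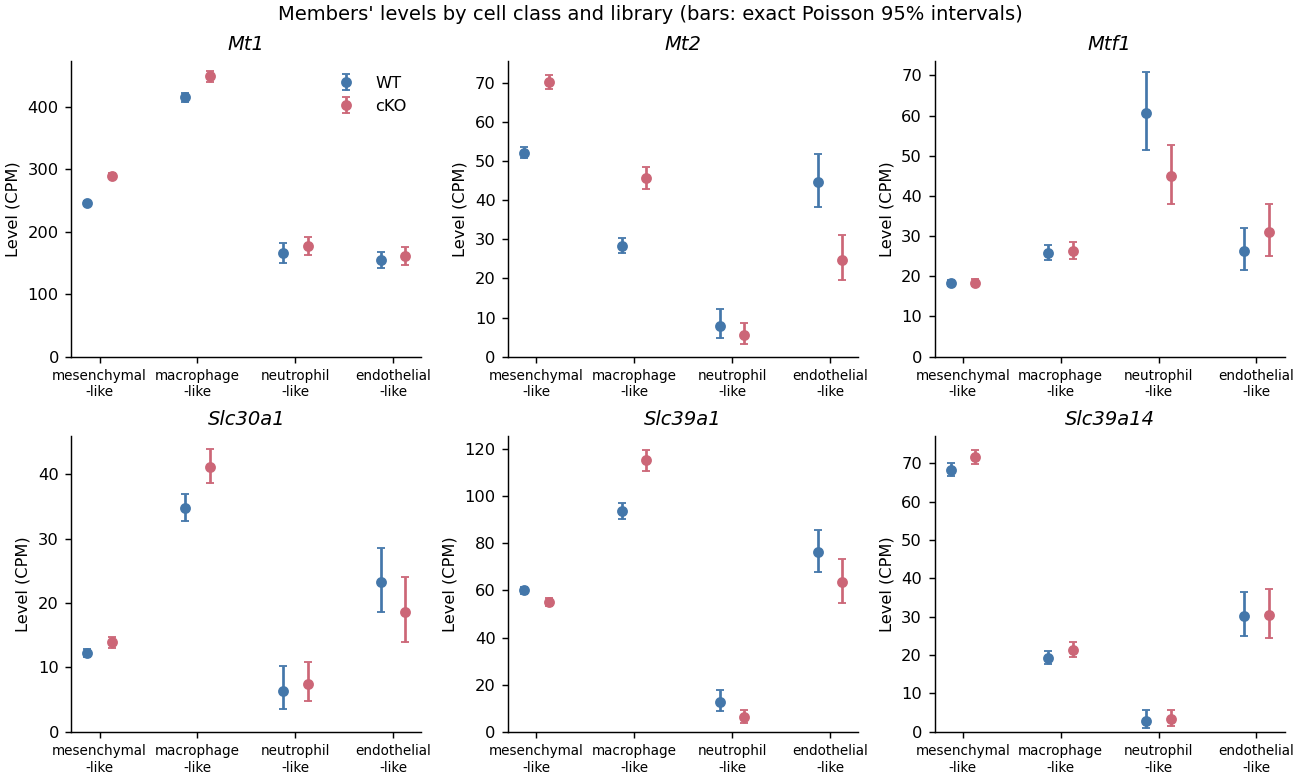
Level of each member (CPM) in the 4 named classes with at least 50 cells in both libraries; blue points are WT, red points are cKO, and bars are exact Poisson 95% intervals. Slc39a14 stands highest in mesenchymal-like cells (68.4 and 71.6 CPM), Mtf1 in neutrophil-like cells (60.5 and 44.9 CPM).

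Both metallothionein genes were higher in the cKO library in mesenchymal-like cells, by 1.18-fold for Mt1 (interval 1.16 to 1.20) and 1.35-fold for Mt2 (1.30 to 1.398). Of 8944 genes that reached 10 CPM in one or both libraries, 365 (4.08%) had a higher ratio than Mt1 and 102 (1.14%) a higher ratio than Mt2. Neither reached 1.5-fold, which 0.581% of all genes did upwards and 1.15% downwards. Mt2 was more than 25% higher, as were 2.01% of all genes, while 3.98% of genes stood at or below 0.8 of WT. The median log2 ratio was 0.33 for the 2 metallothionein genes past 10 CPM and -0.03 for all genes. Over 13 alternatives the ratio of Mt1 ran from 1.05 to 1.20 and that of Mt2 from 1.17 to 1.404, and the lowest values come from leaving out pre-osteoblast-like cells, as given below.

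Mt1 showed no steady trend with the depth of the cells. In mesenchymal-like cells sorted by their UMIs, WT cells had 241 CPM of Mt1 under 5000 UMIs, 213 from 5000 to 20000, 271 from 20000 to 50000, 245 from 50000 to 80000 and 226 above. The cKO cells had 231, 291, 259, 302 and 286 CPM in the same 5 bins. Mt1 was thus higher in cKO in 3 of the 5 bins and lower in 2, where the intervals of the ratio (0.761 to 1.20 under 5000 UMIs, and 0.911 to 1.00 from 20000 to 50000) were wide or close to 1. Mt2 was higher in cKO in all 5, with 55.7, 50.1, 58.4, 51.0 and 44.1 CPM in WT against 101.2, 99.7, 63.5, 72.3 and 68.2 in cKO. In cells of at least 20000 UMIs the ratios were 1.16 for Mt1 and 1.33 for Mt2.

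**Figure D2:**
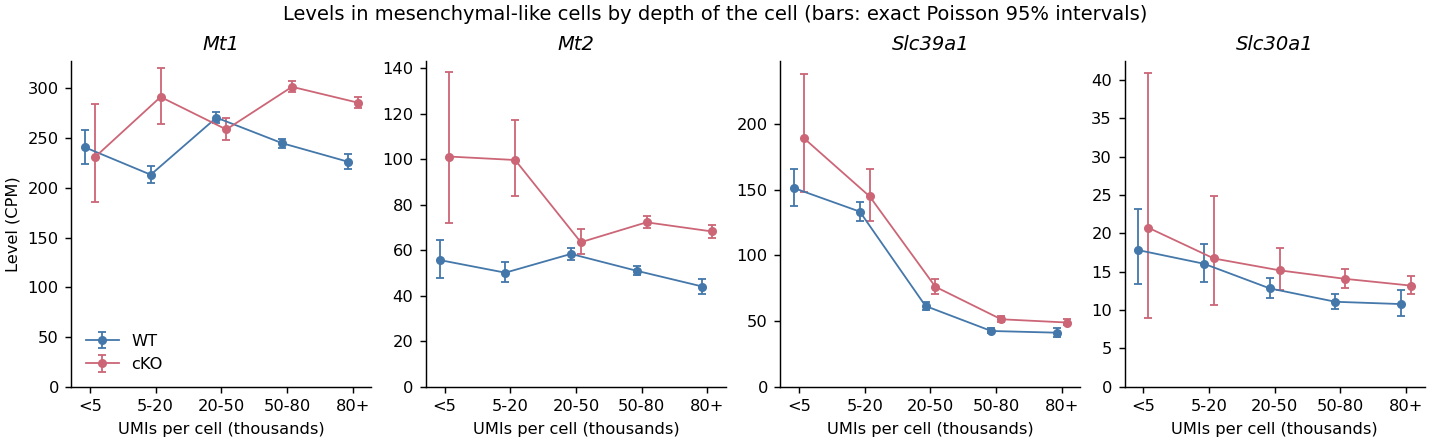
Levels (CPM) of 4 members in mesenchymal-like cells grouped by the UMIs of the cell; blue is WT, red is cKO, bars are exact Poisson 95% intervals. Slc39a1 runs from 151 CPM in the shallowest WT cells to 41.2 CPM in the deepest, and the cKO points lie above the WT points in each bin.

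Among the 4 mesenchymal states with at least 50 cells in both libraries, metallothionein levels were highest in the pre-osteoblast-like cells, the state led by Ibsp and Fat3 with Alpl among its leading genes. There Mt1 had 334 CPM in 238 WT cells and 556 CPM in 107 cKO cells, a ratio of 1.66 (1.58 to 1.74). Mt2 had 75.3 and 147 CPM, a ratio of 1.95 (1.77 to 2.15). These ratios depended on how the state was drawn. Mt1, Mt2 and Mt3 could enter the clustering that formed it, and when they were left out, 168 WT and 247 cKO cells took the same name. Mt1 then had 371 and 446 CPM, a ratio of 1.20, and Mt2 86.6 and 117 CPM, a ratio of 1.35, close to those of mesenchymal-like cells as a whole. Taking instead every mesenchymal-like cell with at least 2 UMIs of Ibsp (540 and 243 cells), a bone matrix gene, gave ratios of 1.39 and 1.61. Over the 9 alternatives tried, all chosen after the values were seen, Mt1 ran from 1.17 to 1.72 and Mt2 from 1.35 to 2.09.

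The level of both genes was above that of the other mesenchymal-like cells in each library under each of the 3 definitions compared. With the metallothioneins in the clustering, Mt1 stood 1.41 times above the other mesenchymal-like cells in WT and 2.08 times in cKO. Without them it stood 1.59 times above in WT and 1.82 times in cKO, and Mt2 1.78 and 2.05 times. By Ibsp alone the values were 1.19 and 1.49 times for Mt1 and 1.18 and 1.501 times for Mt2. In the mesenchymal-like cells left after removing the state drawn without metallothioneins, which held 4.51% of WT and 17.4% of cKO mesenchymal-like cells, the cKO to WT ratio was 1.05 (1.03 to 1.07) for Mt1 and 1.17 (1.12 to 1.22) for Mt2. With the state as first drawn removed, they were 1.13 and 1.28. Of all 8773 genes at 10 CPM or more in the state as first drawn, 1.62% were at least 1.5-fold higher in cKO, 5.69% at least 1.5-fold lower, 7.52% at least 25% higher and 17.5% at or below 0.8 of WT. Those shares are larger than in the whole class, and the sums there rest on fewer cells.

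In the other 3 of these states the differences were smaller. State 0, an unnamed state of deep cells led by Gzmd, Hspb1, Gzme and Cemip, had 257 and 294 CPM of Mt1 in 862 WT and 653 cKO cells. Its ratios were 1.15 (1.12 to 1.17) for Mt1 and 1.31 (1.24 to 1.38) for Mt2. The cycling-like state, led by Top2a, Cdk1 and Cenpf, had the lowest Mt1 of these 4 states, with 211 and 231 CPM in 497 and 380 cells. Its ratios were 1.10 (1.06 to 1.13) for Mt1 and 1.26 (1.17 to 1.36) for Mt2. State 1, a shallow state with macrophage genes among its leading genes, had ratios of 1.11 (1.02 to 1.21) and 1.29 (1.10 to 1.52). In the smaller state 4, led by neutrophil genes, Mt2 had 48.9 CPM in 302 WT cells and 137 CPM in 45 cKO cells (119 and 60 UMIs), a ratio of 2.79 (2.01 to 3.83) that is above the pre-osteoblast-like one but rests on fewer than 50 cKO cells. The other states with so few cKO cells did not share this rise. In state 7 (21 WT and 26 cKO cells) Mt1 was lower in cKO, at 0.6253 (0.471 to 0.8272). Mt2 stood there at 1.317 (0.6714 to 2.654). State 3 (805 WT and 22 cKO cells) had ratios of 1.003 (0.8584 to 1.168) for Mt1 and 0.9038 (0.642 to 1.247) for Mt2. State 6, with 2 cKO cells, had 0.9599 and 0.4337, with wide intervals that hold 1. Whether the states' ratios differ from each other has no test with these libraries.

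**Figure D3:**
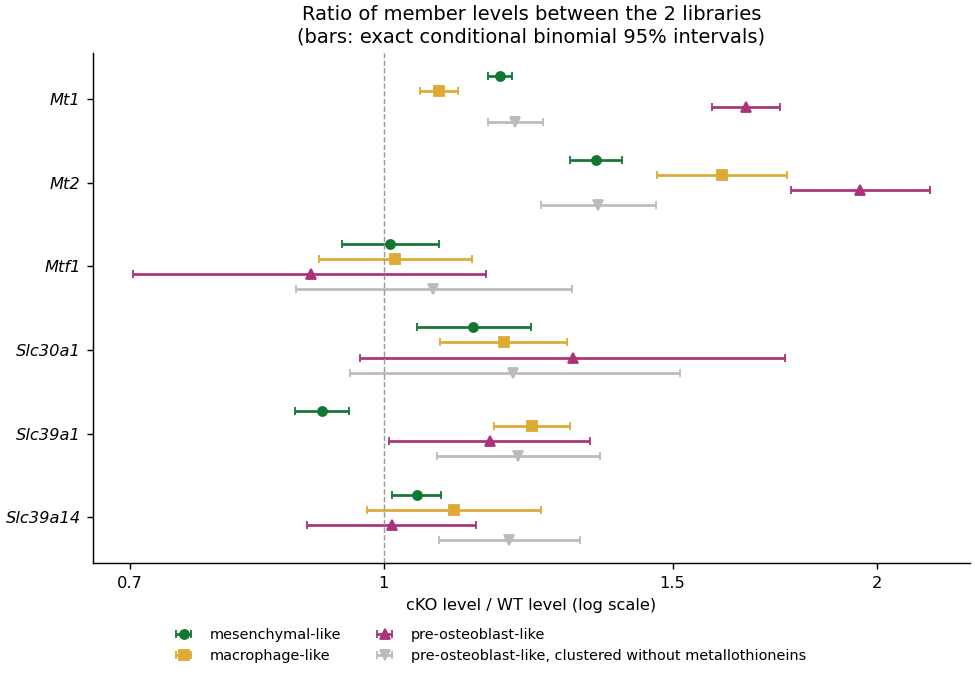
cKO level over WT level of each member (log axis, dashed line at 1) in mesenchymal-like cells (circles), macrophage-like cells (squares) and pre-osteoblast-like cells as first drawn (upward triangles) and as drawn without metallothioneins (downward triangles), with exact conditional binomial 95% intervals. The 2 triangles lie apart for Mt1 (1.66 and 1.20) and Mt2 (1.95 and 1.35).

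Macrophage-like cells, which Prrx1-Cre is not aimed at, showed a larger difference for Mt2 than for Mt1. Mt2 was 1.61-fold higher in the cKO library (1.47 to 1.76) and Mt1 1.08-fold (1.05 to 1.11). Only 33 of 8870 genes (0.372%) had a higher ratio than Mt2 there, against 2145 (24.2%) for Mt1. In macrophage-like cells 0.688% of genes were at least 1.5-fold higher, 1.08% at least 1.5-fold lower, 4.48% at least 25% higher and 7.53% at or below 0.8 of WT. The Mt2 ratio was 1.80, 1.52 and 1.55 in the 3 largest macrophage-like clusters, and it stayed between 1.58 and 1.77 over 9 alternatives. In these cells the 10 mesenchymal markers summed to 1519 CPM in WT and 1331 in cKO, the 10 neutrophil markers to 392 and 472, and the 8 osteoclast markers to 60.6 and 95.3, with no marker of the 3 lists at 0. Their part in the Mt2 ratio was not tested, and neither was the difference of the ratio between classes.

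In mesenchymal-like cells at 3000 UMIs, Mt1 and Mt2 were found in the same cells more often than their separate shares give. After each mesenchymal-like cell was thinned to 3000 UMIs, 47.4% of 3308 WT cells had an Mt1 UMI and 13.1% an Mt2 UMI. Both were seen in 7.98% (7.08 to 8.96), against 6.22% if the 2 were unrelated. In cKO the shares were 49.8% and 17.7% of 1321 cells, with both in 11.6% (9.91 to 13.4) against 8.82% if unrelated. An Mt2 UMI was seen in 16.8% of WT cells with Mt1 and 9.78% of those without, and in 23.2% and 12.2% of cKO cells. The shares of cells with an Mt1 UMI before thinning were 80.1% and 91.5%. In cells of at least 20000 UMIs, thinned to that number, both genes were seen in 50.4% of WT cells (48.0 to 52.9) against 48.3% if unrelated, and in 56.2% of cKO cells (53.3 to 59.1) against 54.6%, so the products lay inside the intervals there. An Mt2 UMI was then seen in 54.3% of WT cells with Mt1 and 21.8% of those without, and in 59.8% and 30.9% of cKO cells. In macrophage-like cells at 3000 UMIs both genes were seen in 4.91% of WT cells (4.09 to 5.85) against 4.27% if unrelated. In cKO they were seen together in 8.62% (7.42 to 9.93) against 7.59%, so both products lay inside the intervals. There 7.64% of WT cells with Mt1 had an Mt2 UMI and 4.82% of those without, and 12.8% and 8.12% in cKO. A product inside its interval thus does not show that the 2 genes were unrelated.

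At 3000 UMIs in mesenchymal-like cells, the joint shares of Mt1 with the transporters lay close to the products. Mt1 and Slc39a14 were seen together in 9.46% of WT cells against 9.15% if unrelated, and in 9.39% of cKO cells against 9.65%. Mt1 and Slc39a1 gave 11.3% against 11.1% in WT and 9.24% against 8.79% in cKO. Mt1 and Slc30a1 gave 2.15% against 2.09% in WT and 1.97% against 1.89% in cKO. Each of these products lay within the interval of the measured share. Mt1 and Mtf1 gave 2.99% (2.44 to 3.63) against 2.58% in WT and 3.56% (2.63 to 4.70) against 2.94% in cKO, also within the intervals. At 20000 UMIs Slc39a1 was seen more often in cells with Mt1, in 63.9% of WT cells with Mt1 and 51.3% of those without, and in 63.2% and 51.5% of cKO cells, although the products again lay inside the intervals. Slc30a1 was seen in 19.0% of WT cells with Mt1 and 24.4% without, and in 23.3% and 13.2% of cKO cells, so the direction differed between the libraries.

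**Figure D4:**
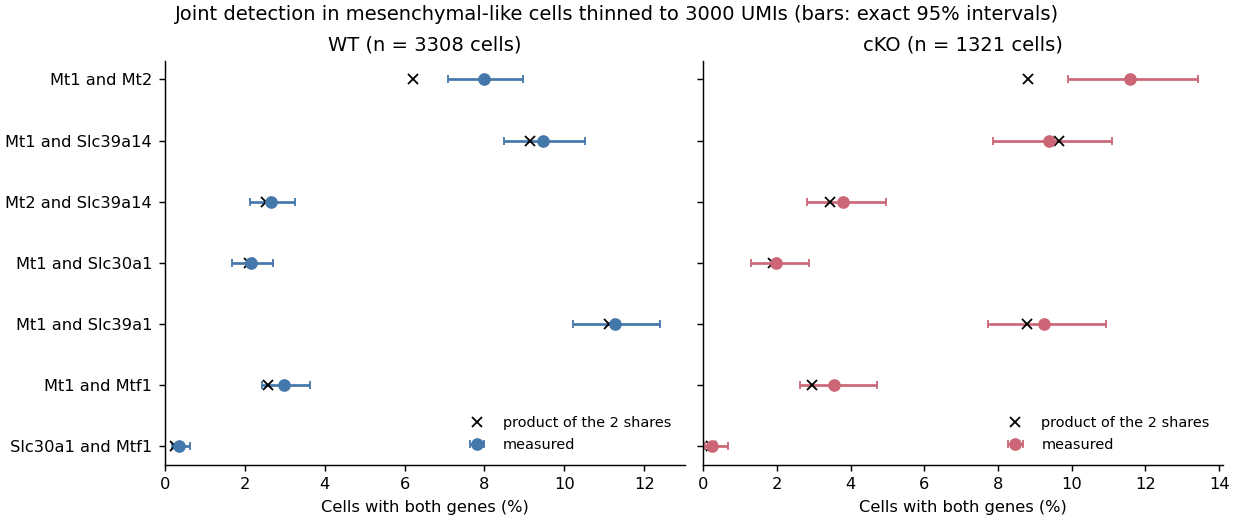
Share of mesenchymal-like cells (%) with at least 1 UMI of both genes of a pair, after thinning each cell to 3000 UMIs, in WT (left, blue) and cKO (right, red); points with bars are the measured share and its exact 95% interval, crosses the product of the 2 genes' own shares. Only for Mt1 and Mt2 does the cross lie outside the interval, at 6.22% against 7.98% in WT and 8.82% against 11.6% in cKO.

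Metallothionein counts were uneven from cell to cell. In mesenchymal-like cells thinned to 20000 UMIs, the median cell had 4 Mt1 UMIs in both libraries, while the mean was 5.00 in 1683 WT cells and 5.77 in 1137 cKO cells. The variance of Mt1 was 7.25 times its mean in WT and 4.67 times in cKO, where counting alone gives 1. Without the 1 cell with the most Mt1 in each library these values were 3.98 in WT and 4.52 in cKO, so the order of the libraries rested on that WT cell. The corresponding values for Mt2 were 3.84 and 2.50, or 2.49 and 2.505 without those cells. They lay between 0.989 and 1.33 for Mtf1, Slc30a1, Slc39a1 and Slc39a14. Intervals that assume counting error only are therefore too narrow for both metallothioneins. One WT cell had 374 Mt1 and 108 Mt2 UMIs of 39918, or 0.937% Mt1, against 0.282% in the next highest WT cell. Without it the ratios were 1.19 for Mt1 and 1.37 for Mt2.

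Across cells at 20000 UMIs, the correlation of log-transformed Mt1 and Mt2 counts was 0.43 in WT and 0.48 in cKO mesenchymal-like cells, as a description over cells that share a library. It was 0.35 and 0.43 in cycling-like cells and 0.41 and 0.44 in state 0. In the pre-osteoblast-like cells as first drawn it was 0.55 over 179 WT and 0.78 over 90 cKO cells. The median pre-osteoblast-like cell had 6 Mt1 UMIs in WT and 10 in cKO. The upper decile was 14 Mt1 UMIs in WT and 22 in cKO.

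**Figure D5:**
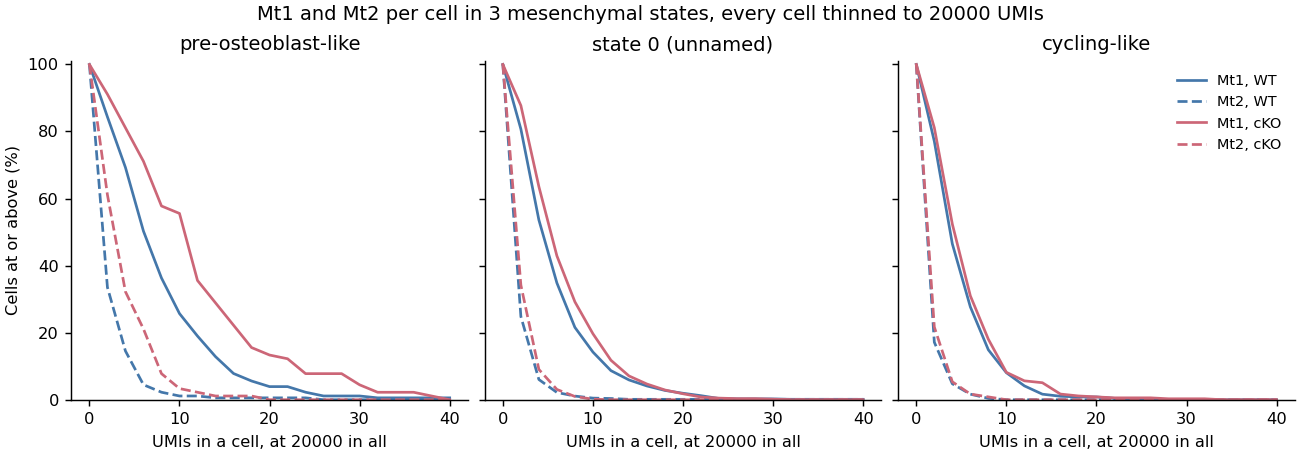
Share of cells (%) with at least the number of UMIs on the horizontal axis, in 3 mesenchymal states after thinning each cell to 20000 UMIs; solid lines are Mt1, dashed lines Mt2, blue is WT and red is cKO. The Mt1 lines of the pre-osteoblast-like cells, drawn with metallothioneins in the clustering, are furthest apart, with medians of 6 and 10 UMIs.

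Mtf1, the zinc sensor that drives metallothionein genes, was at about the same level in both libraries in the 2 largest classes. It had 18.3 CPM (17.5 to 19.1) in WT and 18.4 (17.5 to 19.4) in cKO mesenchymal-like cells, a ratio of 1.01 (0.942 to 1.08). Macrophage-like cells had 25.8 CPM in WT and 26.3 in cKO (ratio 1.02, 0.912 to 1.13). A difference of 25% upwards, or to 0.8 downwards, lies outside both intervals. These hold counting error only, so they set no bound on a difference between genotypes. Its level was highest in neutrophil-like cells, with 60.5 CPM (51.3 to 70.9) in WT and 44.9 (38.1 to 52.6) in cKO, and there it was lower in the cKO library, at a ratio of 0.742 (0.589 to 0.934). Neutrophil-like cells thus combined the highest Mtf1 with the lowest Mt2 of the 4 classes in the plot of levels.

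Slc30a1 encodes the plasma membrane zinc exporter ZnT1. Its macrophage-like level was 285% of its mesenchymal-like level in WT and 297% in cKO, with 34.8 and 41.2 CPM against 12.2 and 13.9. The cKO library was higher by 1.13-fold (1.05 to 1.23) in mesenchymal-like and 1.18-fold (1.08 to 1.29) in macrophage-like cells. Over 10 alternatives the first ratio ran from 1.06 to 1.19. Of the 10 SLC30 genes, 6 reached 10 CPM in mesenchymal-like cells, of which 3 were higher and 3 lower in cKO, none by 25% or to 0.8. Of all 8944 genes there, 3703 were higher and 5241 lower. Slc30a4, an exporter of endosomes, had 50.3 and 53.3 CPM. Slc30a7, which fills the Golgi with zinc, had 46.9 and 43.5 CPM, and Slc30a9, a mitochondrial zinc transporter, 48.9 and 46.0. The median log2 ratio of the 6 was 0.01. In macrophage-like cells 2 of 6 were higher and 4 lower, none by 25% or to 0.8. Of all 8870 genes there, 4013 were higher and 4857 lower.

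Slc39a1 encodes ZIP1, a zinc importer of the cell surface, and its difference in mesenchymal-like cells turned with the choice of cells. Summed over mesenchymal-like cells it was lower in cKO, with 60.01 CPM (58.5 to 61.5) in WT and 55.0 (53.4 to 56.6) in cKO, a ratio of 0.917 (0.882 to 0.952). In cells of at least 20000 UMIs it was higher in cKO, with 48.5 and 52.8 CPM, a ratio of 1.09 (1.04 to 1.14). Its level depended on depth in both libraries: WT had 151, 133, 61.5, 42.5 and 41.2 CPM over the 5 depth bins and cKO had 189, 145, 76.2, 51.4 and 48.9. The cKO value was above the WT value in each of the 5 bins. By state, Slc39a1 was lower in cKO in state 1 (126 and 109 CPM) and higher in state 0 (46.5 and 53.0 CPM) and in cycling-like cells (42.4 and 49.6 CPM). The WT library held 2041 mesenchymal-like cells under 20000 UMIs and the cKO library 280. These shallow cells also carried more blood-cell RNA, with macrophage markers at 644 CPM in WT and 420 in cKO against 153 and 100.7 in the deeper cells, and macrophage-like cells have more Slc39a1. The part of this RNA in the Slc39a1 of shallow cells was not tested.

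In macrophage-like cells Slc39a1 had 93.6 CPM (90.2 to 97.1) in WT and 115 (111 to 120) in cKO, a ratio of 1.23 (1.17 to 1.30). The ratio was 1.34, 1.20 and 1.24 in the 3 largest macrophage-like clusters. Neutrophil-like cells had little of it, with 12.6 and 6.16 CPM.

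Slc39a14 encodes ZIP14, an importer of zinc, manganese and iron that is known from liver and from inflammation. Of the 6 members it was the one most weighted to mesenchymal-like cells, with 68.4 CPM (66.8 to 70.0) in WT and 71.6 (69.8 to 73.5) in cKO. Endothelial-like cells had 30.3 and 30.4 CPM and macrophage-like cells 19.3 and 21.3. The macrophage-like level was 28.2% of the mesenchymal-like level in WT and 29.8% in cKO, whereas 6 mesenchymal marker genes stood in macrophage-like cells at a median of 7.09% and 6.91% of theirs (4.65% to 9.69% in WT). In neutrophil-like cells it stood at 4.02% and 4.51%, beside a median of 4.76% (3.22% to 5.03%) for the markers in WT and 2.30% (1.24% to 3.27%) in cKO. The WT value thus lay within the range of the markers and the cKO value above it, on 7 and 11 UMIs of Slc39a14. The cKO to WT ratio was 1.05 (1.01 to 1.08) in mesenchymal-like and 1.10 (0.977 to 1.247) in macrophage-like cells. The state levels lay close together, with 71.6 and 74.6 CPM in state 0, 64.6 and 67.2 in cycling-like and 71.9 and 72.7 in pre-osteoblast-like cells. In the pre-osteoblast-like cells drawn without metallothioneins it had 60.02 CPM in WT and 71.6 in cKO (1.19-fold, 1.08 to 1.32), the highest ratio of 9 alternatives, and at equal weight per cell the direction turned, to 0.845.

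Of the 14 SLC39 genes, 9 reached 10 CPM in mesenchymal-like cells, of which 4 were higher and 5 lower in cKO, none by 25% or to 0.8. Of all 8944 genes there, 3703 were higher and 5241 lower. Slc39a7, which releases zinc from the endoplasmic reticulum, had the largest log2 ratio of the list, with 114 CPM in WT and 130 in cKO (1.15-fold, 1.12 to 1.18). Slc39a6, a surface importer, had 64.8 and 68.5 CPM, and Slc39a9, of the secretory pathway, 28.5 and 27.1. In macrophage-like cells 10 genes reached 10 CPM, 9 of them higher in cKO, beside 4013 of all 8870 genes. The ratios of 2 of the 10 passed 25% upwards, Slc39a7 at 1.30 (1.22 to 1.39) and Slc39a6 at 1.29 (1.19 to 1.41), beside 4.48% of all genes. Their median log2 ratio was 0.09 and that of all genes -0.02.

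Other lists were read because copper, glucocorticoids, oxidative stress and interleukin-6 are known to act on metallothionein genes. Of 8 NRF2 target genes at 10 CPM or more in mesenchymal-like cells, 5 were higher and 3 lower in cKO, beside 3703 higher and 5241 lower of all 8944 genes. Of the 8 NRF2 genes, 3 were at least 25% higher, beside 2.01% of all genes. Hmox1, haem oxygenase, had 83.3 and 121 CPM (1.45-fold) and Srxn1, sulfiredoxin, 29.4 and 40.2 CPM (1.37-fold). Gclm, for glutathione synthesis, had 52.4 and 67.4 CPM (1.28-fold). In macrophage-like cells all 9 NRF2 genes past 10 CPM were higher in cKO, 6 of them by at least 25% and 3 by at least 1.5-fold, beside 4013 of all 8870 genes higher, 4.48% by at least 25% and 0.688% by at least 1.5-fold. Gclm there had 150 and 261 CPM (1.74-fold), Srxn1 48.2 and 76.8 CPM (1.59-fold), and Slc7a11, a cystine importer gene, 4.97 and 11.03 CPM (2.22-fold). The median log2 ratio of that list was 0.23 in mesenchymal-like and 0.51 in macrophage-like cells.

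Of 8 glucocorticoid-responsive genes, 4 were higher and 4 lower, and 2 were at least 25% higher in mesenchymal-like cells. Of all 8944 genes there, 3703 were higher and 5241 lower, and 2.01% were at least 25% higher. Sgk1, a kinase gene, had 65.2 and 104 CPM (1.603-fold) and Errfi1, an inhibitor of EGF receptor signalling, 123 and 167 CPM (1.35-fold), whereas Nr3c1, the receptor itself, had 75.7 and 69.9 CPM. Of 6 genes of the interleukin-6 and STAT3 list, 1 was higher and 5 lower. Lcn2 had 22.7 CPM in WT and 8.76 in cKO, but it also leads the neutrophil-like cluster, whose markers were higher in WT mesenchymal-like cells, and their part in this difference was not tested. Lifr, the receptor of leukaemia inhibitory factor, had 130 and 79.2 CPM (0.607-fold), and Socs3, a feedback inhibitor, 29.6 and 33.8.

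The copper transport list had 7 genes higher and 4 lower of 11, and the only one past 1.5-fold was Slc31a1, the targeted gene. Of all 8944 genes in mesenchymal-like cells, 3703 were higher and 5241 lower. At least 1.5-fold lower were 1.15%, and 3.98% stood at or below 0.8 of WT. Cp, ceruloplasmin, was the other gene below 0.8, with 30.5 and 22.8 CPM, and the metalloreductase genes Steap1 and Steap2 had 21.4 and 25.7, and 34.5 and 41.2. The iron and manganese list, which holds Slc39a14, had 3 higher and 2 lower of 5 and none past 25% or 0.8. The ferritin genes Fth1 and Ftl1 had 2792 and 3285 CPM and 2993 and 3568 CPM, ratios of 1.18 and 1.19, the size of the Mt1 ratio.

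Over the 16 class-by-library sums of at least 50 cells, the genes most like each member were sought among 6841 genes with at least 50 CPM in a sum, as a description over sums that share libraries and depth. Among the 5 most like Mt1 by Pearson correlation of log2(CPM + 1) were Bckdk, Cops9, Trappc2l and Anapc11 (0.93 to 0.95). The 5 most like Mt2 were March5, Commd3, Aida, Serpinb6a and Epb41l3 (0.92 to 0.95), and the 5 most like Slc39a14 were Pkd2, Manf, Slc41a2, Mydgf and P4hb (0.95 to 0.96). Mt1 and Mt2 correlated with each other at 0.42 over the same sums.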

How the data were processed

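The 2 single-cell libraries were analysed from the deposited matrices of raw UMI counts, 1 count per gene and barcode. Per the file headers the matrices come from Cell Ranger 7.1.0, and the submitters' processing notes name the build mm10 (GRCm38) and Seurat. No source used here says whether the authors counted intronic reads.

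Kept cells had 500 or more genes, 1000 or more UMIs and no more than 15% mitochondrial UMIs, which left 8171 of 9125 WT and 5506 of 6140 cKO barcodes. Scrublet's automatic threshold marked 2 cells in each library and so had not worked. In its place the highest-scoring 534 WT and 243 cKO cells were removed (0.8% per 1000 cells). All kept cells were clustered together by Leiden with no batch correction (2000 variable genes, 30 principal components, 15 neighbours, resolution 0.5; scanpy 1.11.5, leidenalg 0.10.2), and the mesenchymal-like cells once more in the same way. A cluster was named where 3 or more markers of a class lay 2-fold above the mean of the clusters (1.5-fold for states) and its leading genes did not go against the name. States, and clusters much shallower than their library, also needed a marker of the class among their 10 leading genes.

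Counts were summed per library and class and scaled to CPM. Ratios of cKO to WT carry conditional binomial 95% intervals, levels carry Poisson intervals and shares Clopper-Pearson intervals, all exact and all for counting error only. With 1 library per genotype there is no test across samples, and no p-value is given. Median log2 ratios of lists used a prior of 1 CPM. The ratio and its interval were checked on simulated counts. Gene positions are from GENCODE M21 (GRCm38, 1-based) and promoter sequences from RefSeq (GRCm38.p6).

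The members and gene lists were chosen with earlier results of these data known. Named are the 6 members, the genes with the 4 largest absolute log2 ratios of each zinc transporter list in mesenchymal-like cells at 10 CPM or more, at most 4 genes of each other list by the same rule, and the 5 genes most like Mt1, Mt2 and Slc39a14. Of these, 1 gene that this rule names is not reported here. Mt3, Slc31a1, and for macrophage-like cells the genes past a stated threshold are given besides. Alternatives covered the cell filter, doublets, resolution, choice of cells, depth, weight per cell and scaling. Those for the pre-osteoblast-like cells, and those that leave out cells of the mesenchymal-like class, were chosen after the values were seen.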

Additional observations from a re-analysis of the deposited data

Results flagged for a closer look

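Slc39a1 differed in direction between the 2 large classes. Its cKO to WT ratio was 0.917 in mesenchymal-like cells and 1.23 in macrophage-like cells, with intervals on opposite sides of 1. With 1 library per genotype the difference between the classes was not tested, and in mesenchymal-like cells the direction held for the sum over all cells but not within any of the 5 depth bins.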

How the results depend on the processing

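No paired analysis was possible because each genotype has 1 library and the labels carry no replicate numbers. The ratios of Mt1 and Mt2 kept their direction under each alternative run in mesenchymal-like (13), macrophage-like (9) and pre-osteoblast-like cells (9). Scaling by the median of ratios gave 1.20 for Mt1 in mesenchymal-like cells, and equal weight per cell gave 1.404 for Mt2. Leaving out the pre-osteoblast-like cells gave 1.13 and 1.28, and leaving out those drawn without metallothioneins gave 1.05 and 1.17. Slc39a1 reversed to 1.09 in mesenchymal-like cells of at least 20000 UMIs and kept its direction in the other 9 alternatives, down to 0.755 at equal weight per cell. Cells under 20000 UMIs were not among these alternatives, and there its ratio was also above 1, at 1.12 (0.987 to 1.27). Thinning to 20000 in place of 3000 UMIs put joint detection of Mt1 and Mt2 at 50.4% in WT and 56.2% in cKO, since deeper cells show more of each gene. Without the filter on low levels, 1 zinc transporter gene was at least 1.5-fold higher and 3 were lower of 22, against 0 and 0 with it. The share of all genes past 1.5-fold without that filter is not given here, so these counts are not read as a result. In macrophage-like cells Mtf1 changed side in 2 of 9 alternatives, within an interval that holds 1. Intervals assume independent counts, which the uneven metallothionein counts exceed.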

Other observations

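Mt3, a metallothionein best known from brain, was found mostly in osteoclast-like cells, a cluster of 31 WT and 79 cKO cells with Acp5, Ctsk and Mmp9 among its leading genes. It had 330 UMIs there in WT and 567 in cKO, which is 51.2% and 43.3% of all Mt1, Mt2 and Mt3 UMIs of the cluster. Per UMI of the cluster, Mt3 was lower in cKO, with 500 CPM in the 31 WT cells and 333 in cKO. That is a ratio of 0.665 (0.580 to 0.764), with an interval for counting error only. After thinning to 3000 UMIs per cell, the variance of Mt3 was 4.17 times its mean in WT and 2.155 times in cKO. That interval is therefore too narrow. At this depth the share with an Mt3 UMI was 46.7% (28.3 to 65.7) in WT and 37.5% (26.4 to 49.7) in cKO. The intervals of these shares, over 30 and 72 cells, overlapped. Mt3 itself is among the 10 genes that led this cluster, so its level there is a description. Mesenchymal-like cells had 7 Mt3 UMIs in WT and 19 in cKO, and macrophage-like cells 12 and 17. Beside Mt3, the osteoclast-like cells of cKO had Mt1 at 422 CPM and Mt2 at only 14.1 CPM. A few Mt3 UMIs also occurred in the unnamed clusters 10 (0 and 6 UMIs) and 16 (1 and 5).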
